A study of Caenorhabditis elegans with 2 samples.

Results

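SKN-1 peaks that lay close to another SKN-1 peak were examined in L1 larvae, the first stage after hatching, of Caenorhabditis elegans, a nematode. The members were the peaks of the authors' optimal list on the ce11 assembly whose summit, the base of highest signal, lay within 600 bp of the summit of another optimal peak. They were chosen by these measured summit positions, and 152 of the 3484 optimal peaks qualified (4.36%, 95% Wilson interval 3.73 to 5.09%). The remaining 3332 peaks, called isolated peaks here, had no other optimal summit within that distance. Runs of summits each within 600 bp of the next are called clusters, and the 152 peaks formed 74 of them, 70 with 2 peaks and 4 with 3.

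The chromatin came from whole worms of strain OP178, males and females pooled, whose age the labels leave as unknown. The strain has the unc-119(ed3) allele and wgIs178, an integrated transgene that encodes SKN-1 fused to eGFP. The labels name 1 group with 2 biological replicates and fragments of 150 to 350 bp, so no treatment or genotype was compared. The tagged protein is supplied by a transgene inserted outside the native locus, and an untagged strain was not analysed here. In whole animals, 2 peaks bound together in the same cells and 2 peaks bound in different cells cannot be told apart.

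SKN-1 is the worm relative of the mammalian Nrf factors. It acts in the detoxification and oxidative stress responses, in proteasome gene expression, and in the fate of early embryonic cells. It binds DNA through a basic region without the leucine zipper that most bZIP proteins use to pair, and its site ends in the letters TCAT. AP-1 sites, in contrast, are bound by paired bZIP proteins.

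The sequences below show how SKN-1 motifs lay under strong and weak summits of a cluster, in several arrangements. Most clusters had no full motif, and 13 of the 74 had it under the strongest summit. Each sequence is the plus strand of RefSeq WBcel235, the assembly also called ce11, over the 151 bp centred on a summit, written 5′ to 3′. Capitals mark the SKN-1 core (ATCAT or GTCAT on either strand) and the AP-1 type motif TGANTCA, which reads the same on both strands. The clusters at D1005.2, ubxn-3, rpt-6 and eel-1 have the fuller SKN-1 motif under their strongest summit. At vhp-1 the motif lies under both weaker summits and not under the strongest. At cebp-1 the stronger summit has an AP-1 type match and no core, and the weaker summit has 3 cores.
D1005.2, stronger summit, chrX:1456466-1456616: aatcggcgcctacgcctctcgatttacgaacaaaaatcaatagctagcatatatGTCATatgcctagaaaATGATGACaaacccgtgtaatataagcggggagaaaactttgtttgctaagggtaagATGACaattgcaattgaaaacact
D1005.2, weaker summit, chrX:1456910-1457060: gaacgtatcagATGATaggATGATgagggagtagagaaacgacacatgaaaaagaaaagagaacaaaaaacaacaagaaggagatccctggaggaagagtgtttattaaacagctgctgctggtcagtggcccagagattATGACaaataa
ubxn-3, stronger summit, chrII:220700-220850: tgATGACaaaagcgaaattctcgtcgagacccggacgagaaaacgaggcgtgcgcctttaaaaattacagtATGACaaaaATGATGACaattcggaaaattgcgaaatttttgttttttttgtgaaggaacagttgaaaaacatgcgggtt
ubxn-3, weaker summit, chrII:221265-221415: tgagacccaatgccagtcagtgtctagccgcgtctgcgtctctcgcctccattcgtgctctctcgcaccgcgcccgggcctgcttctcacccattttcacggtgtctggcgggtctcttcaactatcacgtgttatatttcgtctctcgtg
rpt-6, stronger summit, chrIII:12370157-12370307: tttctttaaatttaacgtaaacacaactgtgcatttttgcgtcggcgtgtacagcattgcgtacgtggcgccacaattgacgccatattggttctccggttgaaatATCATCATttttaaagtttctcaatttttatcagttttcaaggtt
rpt-6, weaker summit, chrIII:12369706-12369856: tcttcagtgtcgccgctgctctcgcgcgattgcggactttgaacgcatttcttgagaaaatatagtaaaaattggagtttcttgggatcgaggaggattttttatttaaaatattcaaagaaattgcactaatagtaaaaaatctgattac
eel-1, strongest summit, chrIV:3050366-3050516: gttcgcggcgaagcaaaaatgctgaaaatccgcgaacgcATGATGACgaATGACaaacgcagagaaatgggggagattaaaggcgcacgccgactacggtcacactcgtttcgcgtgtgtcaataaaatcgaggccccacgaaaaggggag
eel-1, middle summit, chrIV:3050607-3050757: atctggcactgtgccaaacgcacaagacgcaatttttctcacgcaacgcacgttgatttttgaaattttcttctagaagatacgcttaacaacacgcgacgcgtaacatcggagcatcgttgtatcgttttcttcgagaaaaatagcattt
eel-1, outer summit, chrIV:3050830-3050980: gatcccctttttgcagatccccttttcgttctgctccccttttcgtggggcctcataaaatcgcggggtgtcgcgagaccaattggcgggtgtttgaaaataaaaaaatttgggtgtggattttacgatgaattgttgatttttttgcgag
vhp-1, outer left summit, chrII:5329700-5329850: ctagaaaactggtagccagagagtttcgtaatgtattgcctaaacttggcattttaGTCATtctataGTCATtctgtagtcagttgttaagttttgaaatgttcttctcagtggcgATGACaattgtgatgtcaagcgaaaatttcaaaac
vhp-1, strongest summit, chrII:5330273-5330423: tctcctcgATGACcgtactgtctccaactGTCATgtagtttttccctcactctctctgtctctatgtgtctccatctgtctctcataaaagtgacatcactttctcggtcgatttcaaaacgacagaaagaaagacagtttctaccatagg
vhp-1, outer right summit, chrII:5330473-5330623: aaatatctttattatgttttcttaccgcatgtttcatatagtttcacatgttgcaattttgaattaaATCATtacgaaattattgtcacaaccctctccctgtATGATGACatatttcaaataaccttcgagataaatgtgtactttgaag
cebp-1, stronger summit, chrX:1454463-1454613: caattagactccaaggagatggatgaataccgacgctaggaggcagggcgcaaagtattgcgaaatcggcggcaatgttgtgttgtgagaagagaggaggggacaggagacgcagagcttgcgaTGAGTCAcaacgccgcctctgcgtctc
cebp-1, weaker summit, chrX:1453895-1454045: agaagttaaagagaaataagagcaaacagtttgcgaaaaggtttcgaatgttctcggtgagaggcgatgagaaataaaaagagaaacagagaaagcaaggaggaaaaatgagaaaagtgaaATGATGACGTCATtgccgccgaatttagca
At ubxn-3, which encodes a cofactor of the CDC-48 segregase, the stronger summit held 3 SKN-1 motifs and the weaker summit held neither the motif nor its core. The D1005.2 pair was the exception among the 70 pairs, with the SKN-1 motif under both summits.

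The spacings between neighbouring summits of a cluster fell into separate classes. The 78 spacings ran from 199 to 596 bp with a median of 477 bp. There were 15 spacings from 199 to 257 bp, 0 from 258 to 342 bp and 63 from 343 bp up. These class limits were set after the spacings were seen. The same classes appeared in the deposited lists that were not filtered for reproducibility, where regions of the pooled reads had 23.5% of their spacings up to 257 bp, 2.05% from 258 to 342 bp and 74.4% above. The smallest spacing was 199 bp in the optimal, pooled and both replicate lists. Most optimal regions were exactly 296 bp wide (95.5%), so the regions of the closest class overlapped. The sources used here name no peak caller, and the caller's part in the gap between the classes was not tested.

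**Figure D1:**
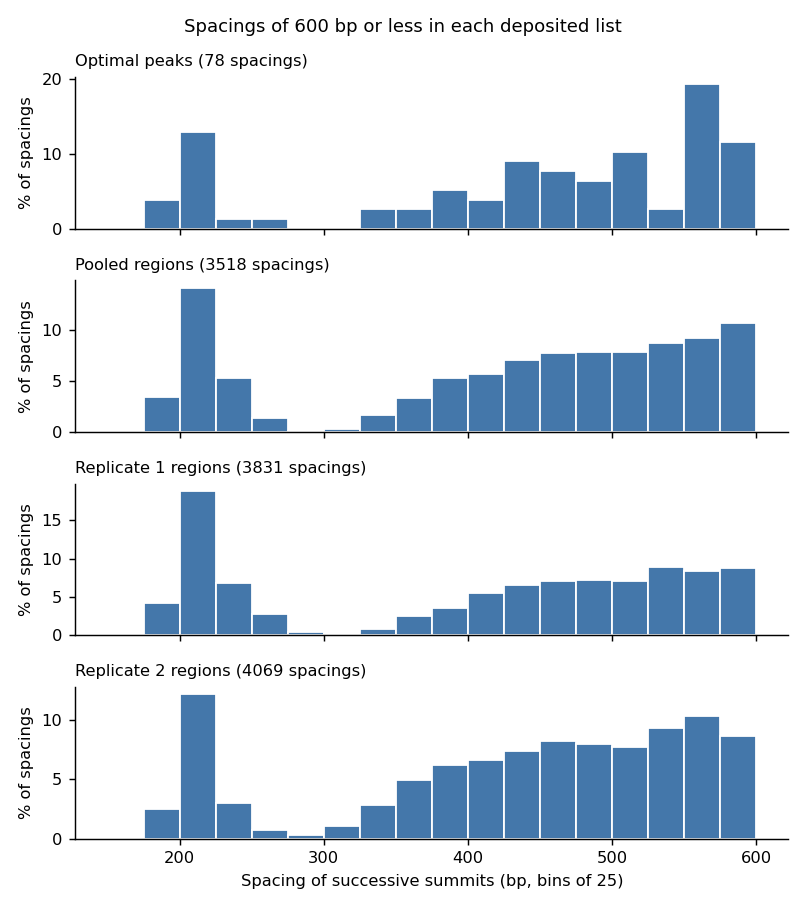
Spacings of 600 bp or less between successive summits (x axis, bp in bins of 25) as a percentage of all such spacings (y axis) in the optimal list, the pooled list and the list of each replicate. No list has a spacing under 199 bp, and spacings from 258 to 342 bp make up 0% of the optimal list and 2.05% of the pooled list.

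The closest pairs were 199 bp apart beside F40E3.3 on chromosome I, 200 bp at vhp-1 on II, 200 bp at ZK1193.2 on X, 201 bp at got-2.2 on X and 203 bp at sup-26 on III. The gene vhp-1 encodes a phosphatase of stress-activated MAP kinases, got-2.2 an aspartate aminotransferase and sup-26 an RNA-binding protein. Of these clusters, only the one beside F40E3.3 had a separate region within 100 bp of every summit in both replicates. Those at got-2.2 and sup-26 did so in replicate 1 only, and those at ZK1193.2 and vhp-1 in neither. At the 600 bp limit, the pairs just inside were F01G4.6/pfd-1 (596 bp, signals 38.2 and 124), one of 2 pairs at ulp-4 (593 bp, signals 41.7 and 33.4) and a pair of the C30E1.4 triple (593 bp, signals 87.8 and 48.9). Just outside lay C47E8.4/hsp-90 (602 bp, signals 183.7 and 39.1), mrp-1 and F13C5.2 (603 bp, signals 33.6 and 230.9) and F28C10.3 (604 bp, signals 158.4 and 371.5). These values are given as a description of the limit.

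Clusters lay on all 6 chromosomes. Clustered peaks made up 37 of 552 optimal peaks on II (6.70%), 37 of 682 on X (5.43%), 29 of 601 on I (4.83%), 23 of 519 on IV (4.43%) and 22 of 608 on III (3.62%). Chromosome V had 4 of 522 (0.766%), in 2 clusters, at gid-8/unc-60 and at csn-1/phf-14. The segment of X from 0.5 to 3 Mb, where optimal peaks are dense, held 12 clustered peaks among 174 (6.90%).

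The peaks of each cluster were ordered by signal, so a gap between the strongest and the weakest is built in. The deposited signal value of the optimal list, on a scale that no label states, had a median of 74.9 for the strongest peak of each cluster and 42 for the weakest. Isolated peaks had a median of 58.3 and all 152 clustered peaks one of 54.0. The ratio of stronger to weaker signal over the 70 pairs had a median of 1.55 and reached 7.64. Signals differed by under 1.2 times in 16 pairs and by over 3 times in 11. In 16 clusters the second peak was still among the 1742 strongest optimal peaks. All signals come from the reads that placed the summits and carry no test.

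**Figure D2:**
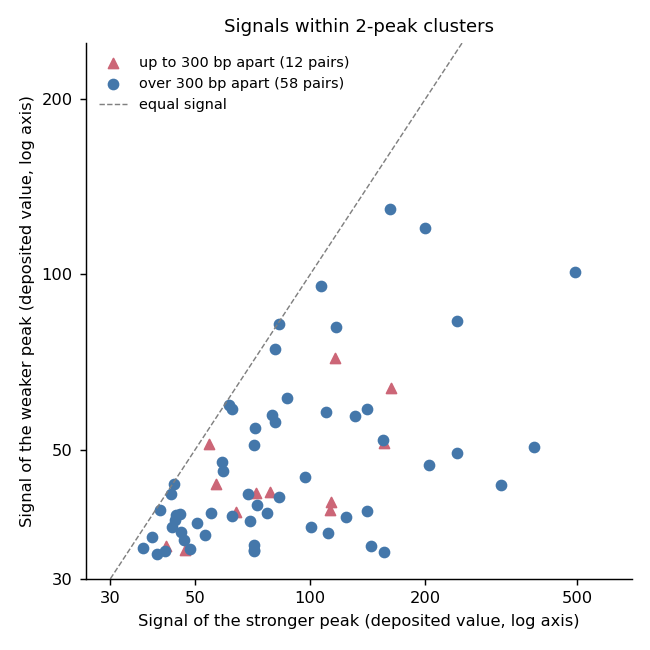
Deposited signal of the stronger peak (x axis) and of the weaker peak (y axis) for the 70 clusters of 2 peaks, both on log axes, with triangles for the 12 pairs up to 300 bp apart and circles for the 58 pairs farther apart. Points near the dashed line have equal signals, and the median ratio is 1.55.

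The highest signal in the set was beside D1005.2 on X, with summits 444 bp apart at 1456541 and 1456985. Their signals were 493.6 and 100.9, ranks 12 and 647 of the optimal list. Replicate 1 gave them 179.7 and 33.9, and replicate 2 gave 312.6 and 73.7, so the left summit was the higher in both. Both lay in intergenic DNA, 2481 and 2037 bp upstream of the D1005.2 start.

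The neighbouring cluster lay upstream of cebp-1, a C/EBP-family bZIP gene with roles in axon regeneration and stress responses. Its stronger summit, 670 bp upstream of the start, had a signal of 385.8 (rank 22), with 217.8 in replicate 1 and 171.8 in replicate 2. The weaker summit, 102 bp upstream, had 50.5 in the optimal list and 61.0 in replicate 2. Replicate 1 had no region within 100 bp of it, so that summit rested on replicate 2 and the pooled reads.

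At rpt-6, which encodes an ATPase subunit of the proteasome's regulatory particle, the summit 224 bp upstream of the start had a signal of 204.7 (rank 117), with 79.5 in replicate 1 and 129.1 in replicate 2. The second summit, 675 bp upstream and also in the window of the histone H3.3 gene his-72, had 47.1, with 26.0 and 29.7 in the replicates. The order of the pair was the same in both replicates. At ubxn-3 the summits lay 108 and 673 bp upstream with signals of 117.1 and 81.3, and replicate 1 gave 46.2 and 37.8 and replicate 2 gave 72.2 and 39.7.

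Some clusters had 2 strong members. The tba-2 summits on I, at an alpha-tubulin gene, had signals of 161.3 and 129.4, with 70.8 and 46.9 in replicate 1 and 84.9 and 81.0 in replicate 2. The ZK470.2 summits on X had 200.2 and 120.1, with 99.5 and 56.8 in replicate 1 and 108.5 and 66.2 in replicate 2. In both clusters the order held in each replicate.

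The order differed between lists in other clusters, and 3 with close signals are described here. Counts over all pairs are given below. Signals were not always close, as Y17G7B.20/ash-2 had 97.1 and 44.9 but 29.3 and 31.5 in replicate 1. At ppfr-1, a protein phosphatase 4 regulatory subunit gene, the signals were 106.7 and 95.4, with 52.2 and 48.7 in replicate 1 but 47.7 and 52.0 in replicate 2. Y111B2A.12 had 82.8 and 82.1, with 37.5 and 46.3 in replicate 1 and 44.1 and 34.1 in replicate 2. F40F11.3/spe-36/mig-38 had 80.7 and 74.4, with 30.7 and 34.2 in replicate 1 and 46.2 and 54.0 in replicate 2. The order of the optimal list was turned in replicate 2 at ppfr-1, in replicate 1 at Y111B2A.12 and in both at F40F11.3.

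Other clusters paired a strong peak with a weak one. F20B6.9 had signals of 316.0 and 43.4, epg-9, an autophagy gene, had 242.2 and 49.4, and F09E10.1 had 163.2 and 63.8. Replicate 1 had no region within 100 bp of the weaker F09E10.1 summit. R06C1.4/wve-1 had 155.7 and 33.3, ranks 231 and 3447, the latter near the end of the list. The ecps-1/atx-2 pair had 242.4 and 83.2, and atx-2 encodes the worm ataxin-2, an RNA-binding protein.

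The 4 clusters of 3 summits lay at eel-1, vhp-1, C30E1.4 and pdi-3/ubql-1. The gene eel-1 encodes a HECT-type ubiquitin ligase known to limit SKN-1 protein in the early embryo. Its 3 summits, 337, 578 and 801 bp upstream of the start, had signals of 100.2, 50.3 and 52.4, and both replicates had a region within 100 bp of each. They measured 46.3, 18.1 and 23.5 in replicate 1 and 57.0, 24.7 and 28.6 in replicate 2. The summit nearest the gene was the strongest in both replicates.

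The other triples were not resolved in both replicates. At vhp-1 the optimal signals were 67.9, 93.1 and 53.8, and replicate 1 had a region only at the middle summit (63.1) while replicate 2 had regions only at the outer summits (60.5 and 43.1). C30E1.4 had signals of 65.6, 87.8 and 48.9, and replicate 1 had only a region near the last. The triple between pdi-3, a protein disulfide isomerase gene, and ubql-1, an ubiquilin gene, was weak, with signals of 36.0, 33.4 and 35.1.

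Most single summits recurred in the replicates. A whole cluster counted only if every summit had a region of its own, a stricter requirement than for single summits. A region of replicate 1 lay within 100 bp of 137 clustered summits (90.1%, against 95.5% of isolated ones), and a region of replicate 2 lay near 141 (92.8% against 97.5%). A separate region for every summit was present for 61 of the 74 clusters in replicate 1, for 63 in replicate 2, for 52 in both and for 2 in neither. These counts accept any of the 30000 regions of each replicate list, weak ones too. Among the 3484 strongest regions of both replicates were 57.9% of clustered and 65.5% of isolated summits. Every summit was among them in 26 clusters. Of the 12 pairs up to 300 bp apart, 6 were resolved in replicate 1, 7 in replicate 2 and 2 in both. Of the 58 wider pairs, 53 and 54 were resolved and 49 in both. The 300 bp limit was chosen after the spacings were seen.

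Of the 70 pairs, 51 were seen as 2 regions in both replicates. Their spacings differed between replicates by a median of 34 bp, and by 50 bp or less in 32 pairs. The stronger peak of the optimal list was also the stronger in replicate 1 in 38 pairs and in replicate 2 in 47. The 2 replicates had the same stronger peak as each other in 36 pairs, whichever peak led in the optimal list. This count includes F40F11.3, where both replicates turned the optimal order. When the 3484 strongest regions of each replicate were clustered by the same rule, replicate 1 gave 75 clusters and replicate 2 gave 91. Of the 74 optimal clusters, 40 were clusters in the replicate 1 set (54.1% of the optimal and 53.3% of the replicate 1 clusters). The count for replicate 2 was also 40 (54.1% and 44.0%).

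**Figure D3:**
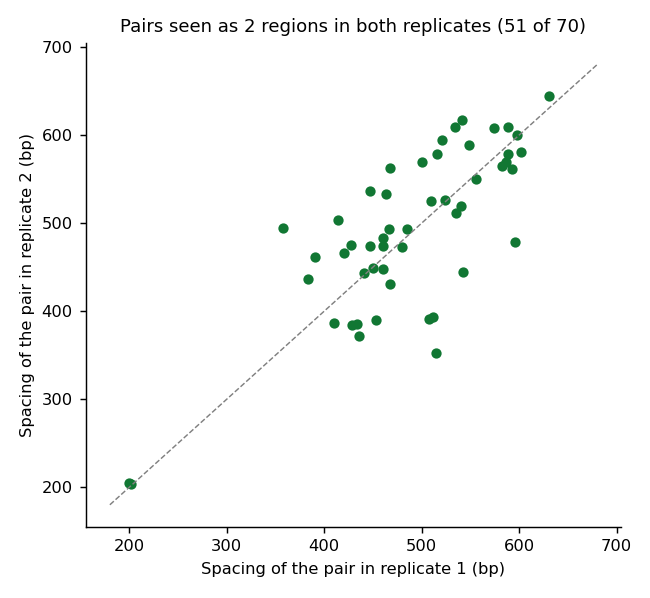
Spacing of the 2 regions in replicate 1 (x axis, bp) and replicate 2 (y axis, bp) for the 51 pairs resolved in both replicates, with a dashed line at equal spacing. The median difference is 34 bp, and 2 of the 12 pairs up to 300 bp apart are among the points.

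Single optimal peaks were not always alone among weaker regions. Another region of the pooled list lay within 600 bp of 739 isolated peaks (22.2%). A further pooled region lay within 600 bp of a summit in 28 of the 74 clusters.

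Clustered peaks lay mostly upstream of the nearest coding start (75.7%), as isolated ones did (80.9%), but farther from it. A promoter window, from 1000 bp upstream to 200 bp downstream of an annotated protein-coding start, held 87 of the 152 clustered summits. The shares were 57.2% of clustered and 66.4% of isolated peaks. Introns held 25 (16.4%, against 10.7% of isolated peaks) and intergenic DNA 31 (20.4% against 18.6%). Genes of other types held 8 (5.26% against 2.79%) and coding sequence 1 (0.658% against 0.720%). To count each locus once, the strongest peak of each cluster was compared with isolated peaks. The promoter share was 58.1% of 74 (95% Wilson interval 46.7 to 68.7%) against 66.4% of 3332, an odds ratio of 0.702 that did not pass (two-sided Fisher exact test, p = 0.138). By Fisher exact tests it passed within 5 signal bins of equal size (exact stratified test, odds ratio 0.591, p = 0.0369), with all clustered peaks (0.678, p = 0.0227) and with the narrower window of 500 bp upstream to 100 bp downstream (0.562, p = 0.0175). The test over all clustered peaks counts each locus 2 or 3 times as if independent, so its p is too small.

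The distance to the nearest coding start had a median of 671 bp for the strongest peaks of clusters and 326.5 bp for isolated peaks. The difference of 344.5 bp had p = 0.0108 in a two-sided permutation test, which was added after the values were seen. With clusters limited to 300 bp, the difference was 173 bp and did not pass (permutation p = 0.332).

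Of the 74 clusters, 37 had all their summits in promoter windows of the same gene, 35 of them pairs. One annotated start had both summits of the pair in its window in 31 of the 35, and the other 4 used alternative starts of the gene. Both summits were upstream of the start in 28, and the stronger summit was the nearer one in 19 of 35. Where 2 genes shared a pair, 1 of them was used, and the counts depend on that choice. At ecps-1/atx-2 the stronger summit was the farther from atx-2 (640 and 59 bp) but the nearer to ecps-1 (198 and 779 bp). At mdl-1, a MAD-like bHLH factor gene, the stronger summit was 18 bp upstream and the weaker 575 bp upstream, and at mnk-1, a MAP kinase-interacting kinase gene, they were 69 and 581 bp upstream. At sod-1, the cytosolic superoxide dismutase gene, the start lay between a summit 160 bp downstream (signal 86.8) and one 305 bp upstream (61.4). An annotated start lay between the summits of 8 clusters.

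**Figure D4:**
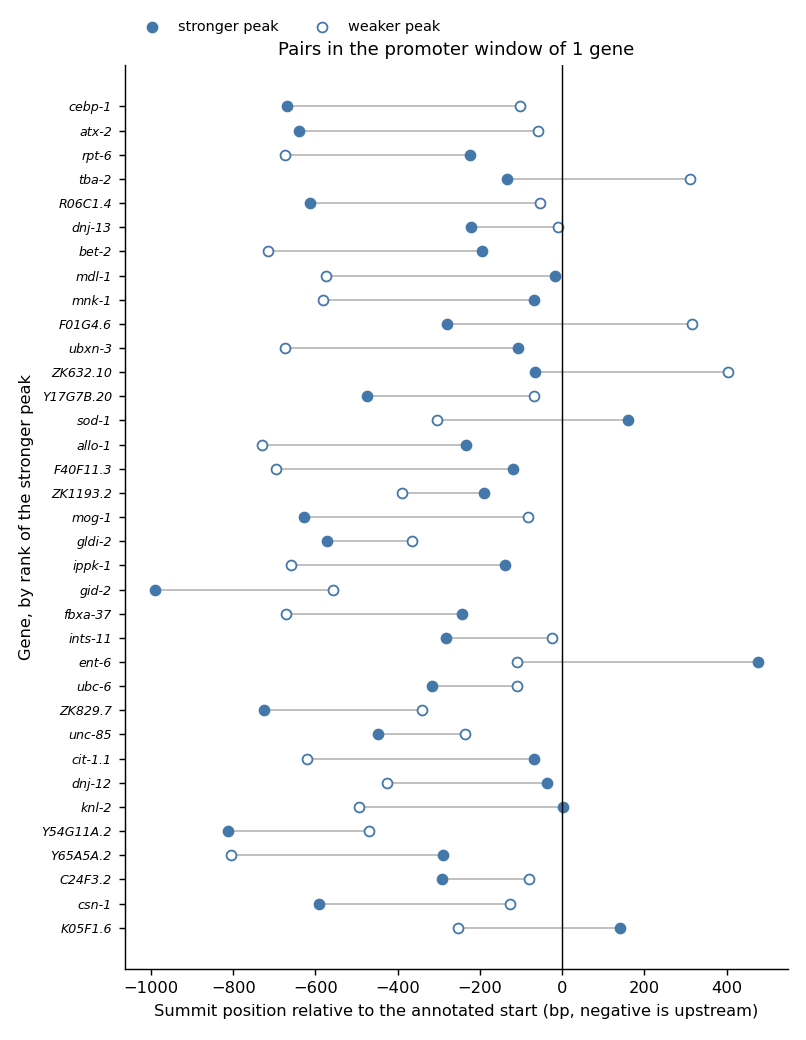
Positions of the stronger (filled) and weaker (open) summit relative to 1 annotated start (x axis, bp, negative is upstream) for the 35 pairs in promoter windows of the same gene, ordered by rank of the stronger peak. The stronger summit is the nearer one in 19 of the 35. Where 2 genes share a pair, only the named gene is drawn, and the count depends on that choice.

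Some pairs sat in the shared upstream region of 2 genes. The outer summits had different nearest genes in 13 clusters, and in 9 of these the genes were a divergent pair. In 8 of the 9 each outer summit was within 1000 bp of its own gene. Examples were the cyclin T genes cit-1.1 and cit-1.2 (69 and 331 bp from the starts), the Integrator endonuclease gene ints-11 and the ribosomal protein gene rpl-10 (25 and 121 bp), and mtx-1 and the co-chaperone gene dnj-12 (67 and 38 bp). Others were the COP9 signalosome gene csn-1 with phf-14 (128 and 151 bp), and Y17G7B.20 with ash-2, a gene of the histone H3K4 methyltransferase complex (69 and 107 bp). Not all of these summits recurred. Replicate 2 had no region within 100 bp of the ints-11 summit, and replicate 1 had none near the mtx-1 summit. The phf-14 summit had a signal of 5.61 in replicate 1 (rank 14694) and 36.9 in replicate 2. A divergent position was held by 18.9% of the strongest peaks of clusters and by 20.9% of isolated peaks (odds ratio 0.882, two-sided Fisher exact test, p = 0.773).

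Over all 19973 protein-coding genes, 3002 had an optimal peak in a promoter window, which a clustered peak requires. Of the 19973 genes, 65 had at least 1 clustered peak there (0.325%) and 48 had 2 or more (0.24%). The gene lists gave counts of 2 genes at most. They held 1 of 33 proteasome genes (rpt-6, 3.03%) and 1 of 81 ribosomal protein genes (rpl-10, 1.235%). Also held were 1 of 25 bZIP genes (cebp-1, 4%) and 2 of 59 chaperone genes (dnj-12 and dnj-13, 3.39%). All of these genes had 2 clustered peaks. Their shares are above the 0.24% of all protein-coding genes, but each rests on 1 or 2 genes and was not tested. An optimal peak lay at 30 of these proteasome genes, 73 ribosomal protein genes, 11 bZIP genes and 30 chaperone genes. At rpl-10, dnj-12 and cebp-1, 1 of the 2 summits had no region within 100 bp in 1 replicate. With 1 clustered peak each were mrpl-15 among 70 mitochondrial ribosomal protein genes and epg-9 among 27 autophagy genes. Of those lists, 30 and 14 genes had an optimal peak. Of 260 microRNA genes, cel-mir-52 on chromosome IV had 2. MicroRNA genes are not among the 19973 protein-coding genes, so that background does not apply to them. How many of them had an optimal peak was not counted. No gene with a clustered peak was found among 33 translation factor genes, 47 glutathione S-transferase genes, 269 nuclear hormone receptor genes, 38 insulin-like peptide genes, 72 homeobox genes and 156 cuticle collagen genes. In that order, 24, 16, 40, 1, 5 and 6 genes had any optimal peak, and only those could have a clustered one. The lists were built from gene names.

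Away from promoters, osgn-1, named for a growth inhibitor induced by oxidative stress, had a pair in an intron, 1925 and 2435 bp downstream of its start. The signals were 38.4 and 62.3, with 11.3 and 24.0 in replicate 1 and 26.8 and 40.1 in replicate 2, and the downstream summit held a SKN-1 motif. The polyglutamine protein gene pqn-41, which acts in linker cell death, had a pair 215 bp apart with signals of 115.8 and 72.0. Replicate 1 had a region only at the weaker of them (56.7), while replicate 2 had 90.1 and 15.7.

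The SKN-1 core was more common under the strongest peak of a cluster than under isolated peaks. The motifs were sought on both strands within 75 bp of the summit. The core occurred at 45 of 74 strongest peaks (60.8%, 95% Wilson interval 49.4 to 71.1%) and at 1405 of 3332 isolated peaks (42.2%, interval 40.5 to 43.8%), with an odds ratio of 2.13 (two-sided Fisher exact test, adjusted p = 0.0146 over 8 motifs). The AP-1 type motif occurred at 9 of 74 (12.2%) and 136 of 3332 (4.08%), with an odds ratio of 3.25 (adjusted p = 0.0149, Fisher exact test). With clusters drawn at 1000 bp, the AP-1 odds ratio was 1.47 and did not pass (adjusted p = 0.359, Fisher exact test). The AP-1 and SKN-1 core letters can overlap in a shared stretch. Windows of the same length at 29299 annotated coding starts held the core in 44.2% and the AP-1 type motif in 5.20%.

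Both differences concern the strongest summits, which were selected on signal. At the weakest peak of each cluster the core share was 40.5% and the AP-1 share 4.05%, close to the isolated values (odds ratios 0.935 and 0.993). With all 152 clustered peaks counted, the core share was 50.7% and neither motif passed (adjusted p = 0.175 for each, Fisher exact test). Within the 5 signal bins both passed. In the strongest bin the core lay at 65.4% of 26 strongest peaks of clusters and at 41.8% of 668 isolated peaks. In the fourth bin the shares were 42.9% of 14 and 44.1% of 665, and in the weakest bin 25% of 4 and 44.9% of 659. Neither motif passed when clusters were drawn from replicate 2 alone (Fisher exact test, core odds ratio 1.19, adjusted p = 0.598). From replicate 1 alone the core passed (Fisher exact test, odds ratio 2.26, adjusted p = 0.00501) and the AP-1 type motif did not (2.16, adjusted p = 0.324).

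The fuller SKN-1 motif has A or T at each of its first 2 positions, then T, then A or G, then TCAT. It occurred at 13 of 74 strongest peaks (17.6%) and 310 of 3332 isolated peaks (9.30%), and missed the threshold (odds ratio 2.08, Fisher exact p = 0.0251, adjusted p = 0.067). By Fisher exact tests it passed in replicate 1 alone (odds ratio 2.79, adjusted p = 0.00501), among the 1742 strongest optimal peaks (4.95, adjusted p = 0.042, 16 clusters), at a cluster distance of 1000 bp (2.19, adjusted p = 0.00132) and within 150 bp of the summit (1.94, adjusted p = 0.0494). Within the 5 signal bins it did not pass (exact stratified test, odds ratio 1.89, adjusted p = 0.142). Nor did it in replicate 2 alone (Fisher exact test, 1.73, adjusted p = 0.453) or with all clustered peaks (1.23, adjusted p = 0.874). The motif also missed at a cluster distance of 300 bp, within 50 bp of the summit, among promoter peaks alone and without the dense part of X. Windows at annotated starts held it in 8.11%. In the strongest signal bin it lay at 9 of 26 strongest peaks of clusters and at 94 of 668 isolated peaks (14.1%). In the 2 weakest bins it lay at 0 of 14 and 0 of 4 strongest peaks of clusters, and at 9.02% and 7.13% of isolated peaks. The nearest match lay a median of 22 bp from the summit in the 13. They were at D1005.2, ubxn-3, rpt-6, ecps-1/atx-2, sod-1, ints-11/rpl-10, mrpl-20, pqn-41, eel-1, osgn-1, gid-8/unc-60, ZK470.2 and R06C1.4/wve-1.

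**Figure D5:**
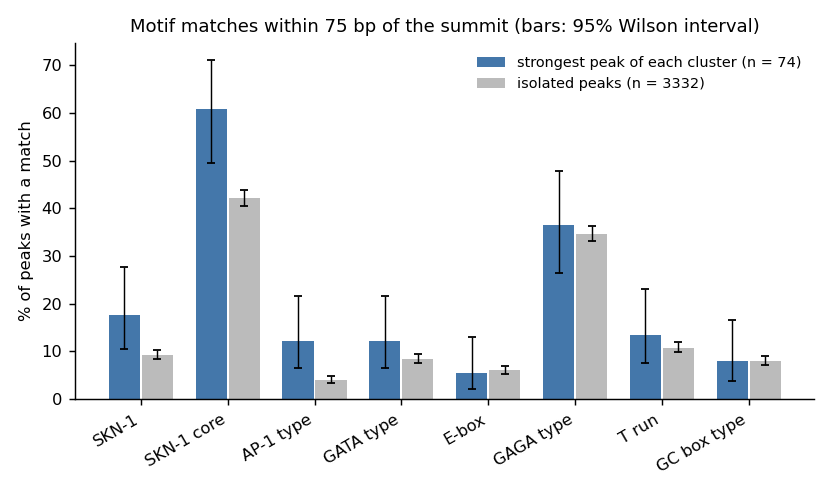
Percentage of peaks with a match within 75 bp of the summit (y axis) for each of 8 motifs (x axis), for the strongest peak of each of 74 clusters and for 3332 isolated peaks, with 95% Wilson intervals as bars. The SKN-1 core (60.8% and 42.2%) and the AP-1 type motif (12.2% and 4.08%) passed the adjusted threshold.

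The other motifs did not pass. GATA type (TGATAA) was at 12.2% and 8.43%, E-box (CACGTG) at 5.41% and 6.06%, GAGA type (GAGAGA) at 36.5% and 34.7%, a run of T at 13.5% and 10.8% and GC box type (GGGCGG) at 8.11% and 8.07%. At annotated starts their shares were 17.4%, 3.29%, 12.9%, 20.8% and 4.74%.

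Within pairs, the SKN-1 motif was more often under the stronger summit than under the weaker. It lay under the stronger summit alone in 11 of the 70 pairs, under the weaker alone in 1, under both in 1 and under neither in 57. Of the 4 triples, eel-1 had it under the strongest summit alone, vhp-1 under both weaker summits, and the other 2 had none. The exact McNemar test gave p = 0.00635, and the motif was at the stronger summit in 91.7% of the pairs that differed. The pair with the motif at the weaker summit alone was at dpsm-1 on chromosome I. Pairs at least 300 bp apart also passed (exact McNemar p = 0.0215). Ranking the pair by replicate 2 alone gave an exact p = 0.0117, and by replicate 1 alone p = 0.0654, which did not pass (81.8% of the pairs that differed).

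No difference in base composition or in short words passed. The mean GC content of the 151 bp windows was 43.1% ± 8.32 (SD, n = 74) for the strongest peaks of clusters and 43.5% ± 7.65 (SD, n = 3332) for isolated peaks (two-sided permutation p = 0.662). Of 2080 words of 6 bases, each taken with its reverse complement, 0 passed (0%, Fisher exact tests, smallest adjusted p = 0.762), and 109 had an unadjusted p under 0.05.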

How the data were processed

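ChIP-seq of eGFP-tagged SKN-1 was measured in 2 biological replicates of 1 group. The authors deposited narrowPeak lists of the pooled reads, of each replicate and of the optimal IDR-thresholded peaks. Per the deposited readme, 1 control alignment was shared by both replicates. The deposited signal value and −log10 q-value of each region, and the offset of its summit from the region's start, were used as the authors gave them. The aligner, caller, IDR threshold and read depth are not stated in the sources used, so no counting error could be attached to a signal.

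Clusters, promoter windows, motifs and 6-mers were computed in Python 3.11.15 with numpy 2.4.6 and scipy 1.17.1, on the ce11 lists, RefSeq WBcel235 sequence and Ensembl release 115 annotation. Every ce11 region lay inside its reference chromosome. In the main tests each cluster counted once, through its strongest peak. Tests were two-sided Fisher exact tests (Benjamini-Hochberg over the 8 motifs, or over all 6-mers), an exact McNemar test over pairs and permutation tests with 100000 resamples, and the call threshold was 0.05. Procedures were tested on simulated data. Peaks of 1 genome are the units here, so the p-values do not measure spread between animals. Intervals cover counting error only.

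The named clusters were those with the strongest first peak, the strongest second peak or the most peaks, the closest pairs, the pairs beside the 600 bp limit, list members with 2 clustered peaks, and a few fixed genes. Genes in other examples were chosen after their values were seen. The members and lists were chosen with earlier results of these data known.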

Additional observations from a re-analysis of the deposited data

How the results depend on the processing

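The number of clustered peaks was 32 among the 1742 strongest optimal peaks, 29 with a limit of 300 bp and 394 with 1000 bp, and 155 to 196 from single replicates. The promoter odds ratio, 0.702, passed at 0.285 among those 1742, 0.653 at 1000 bp, 0.678 with all clustered peaks, 0.591 within 5 signal bins, 0.562 in the narrower window and 0.520 to 0.524 from single replicates. It did not pass at 300 bp, without the dense part of X or for the weakest peaks, an alternative added after seeing the data. The divergent odds ratio turned to 1.53 at 300 bp, and passed at 0.665 at 1000 bp and at the lower end of its range of 0.408 to 0.520 from single replicates. Of 8 motifs, 2 passed (core and AP-1 type), against 1 among those 1742 (the SKN-1 motif, with both main calls lost), 0 at 300 bp, 0 with all clustered peaks, 1 within 50 bp of the summit (the core), 0 for the weakest peaks and 0 to 2 from single replicates. The 2 of replicate 1 alone and the 2 at 1000 bp were the core and the SKN-1 motif. For the weakest peaks the odds ratios turned to 0.993 for AP-1 type, 0.412 for the SKN-1 motif and 0.935 for its core, and AP-1 type fell to 0 at 300 bp, where few clusters remain. The GC difference of -0.403 points turned to 1.04 at 300 bp, 0.234 at 1000 bp and 0.707 within 150 bp, and ran from -0.985 to 0.0362 from single replicates. The 6-mer count was 0 to 2 from single replicates, and the pair percentage 81.8 to 90.9, losing its call from replicate 1 alone. The distance difference was 173 bp at 300 bp, without a call, and 445 to 635 bp from single replicates. The causes were not tested. On the ce10 list, 148 of 3434 peaks were clustered. No paired analysis was possible because the samples form only 1 group, so replicate numbers pair no samples across groups. Read depth is unknown, so what it limits could not be computed.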
